A study of Mus musculus with 2 samples.

Results

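Genes for 10 secreted factors that leukocytes can direct at the liver stroma were followed, cell class by cell class, in steatohepatitis after marrow transplantation. They were Tgfb1, Pdgfa, Pdgfb, Igf1, Gdf15, Vegfa, Hbegf, Osm, Areg and Grn, chosen by symbol, and all 10 were found among the 32285 genes of the count matrices. Recipients were male C57BL/6J mice whose marrow was replaced after irradiation, either by Trem2-/- marrow or by that of Trem2+/+ littermates. Trem2 encodes a lipid-sensing receptor of macrophages. After 6 weeks of recovery both groups were fed a diet deficient in methionine and choline for 4 weeks, which produces non-alcoholic steatohepatitis, so no group on a normal diet stands beside them. Viable CD45+ liver cells of 4 mice per group were pooled in equal parts and captured as 1 library per marrow genotype, and the labels give no age for the mice. Only marrow-derived cells carry the donor genotype, while endothelial cells, stellate cells and any host macrophages that survive irradiation carry the recipient's.

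Macrophages and other leukocytes shape a fibrotic liver through secreted ligands that act on stellate cells, endothelial cells and the biliary epithelium. TGF-beta and the platelet-derived growth factors (PDGFs) drive stellate cells towards matrix production and proliferation, VEGF-A acts on sinusoidal endothelium, and the epidermal growth factor (EGF) family ligands HB-EGF and amphiregulin act on epithelial and mesenchymal cells. IGF-1, oncostatin M, progranulin and GDF15 are further secreted proteins with effects on tissue repair or metabolism.

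The Trem2-/- library kept 5978 of 6362 barcodes and the Trem2+/+ library 6598 of 7012, with medians of 2932 and 2493 deduplicated transcript counts (UMIs) per cell. Trem2 itself stood at 6.19 CPM (UMIs of the gene scaled to a class or library total of 1000000) in the Trem2-/- library and 204 CPM in the Trem2+/+ library, in the direction of the labels. Macrophage-like cells had 43.2 and 686 CPM of it and Kupffer-like cells 48.2 and 374 CPM. The labels do not say which part of the gene is deleted. Clustering gave 29 clusters, and each was called "-like" after the class whose markers it carried, except for 7 that stayed unnamed. The unnamed clusters held 24.2% and 21.6% of kept cells, in the order Trem2-/- and Trem2+/+ as in every unlabelled pair of values. One unnamed cluster of shallow cells, led by Cxcl13, Pf4 and Vsig4, held 2.11% and 6.73% of cells. It had been named Kupffer-like until the naming rule was tightened after the clusters were seen. The CD45 sort also let through endothelial-like cells (656 and 386), cholangiocyte-like cells (10 and 14) and stellate or fibroblast-like cells (13 and 14), which are not leukocytes. Macrophage-like cells made up 3.5965% of the Trem2-/- library and 11.7% of the Trem2+/+ library. This class held 2 clusters, and the one led by Gpnmb and Mmp12 held 22.8% of it in the Trem2-/- library and 35.6% in the Trem2+/+ library. The libraries shared 56 barcode sequences. Each group being 1 library, no test between genotypes was possible. The 95% intervals given here, exact Poisson for a level, exact binomial for a share and exact conditional binomial for a ratio, cover counting error only, and they treat UMIs of 1 cell as independent.

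The factors differed in the class where each was highest. Over the 10 classes that reached 100 cells in both libraries, 7 of the 10 genes had the same highest class in both libraries. Tgfb1 was highest in Ly6C-high monocyte-like cells, Pdgfa and Gdf15 in macrophage-like cells, Igf1 and Grn in Kupffer-like cells, and Vegfa and Osm in neutrophil-like cells. The other 3, Pdgfb, Hbegf and Areg, had a different highest class in each library. Levels of different genes cannot be ranked against each other on this scale, and each gene is compared with itself across classes.

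**Figure D1:**
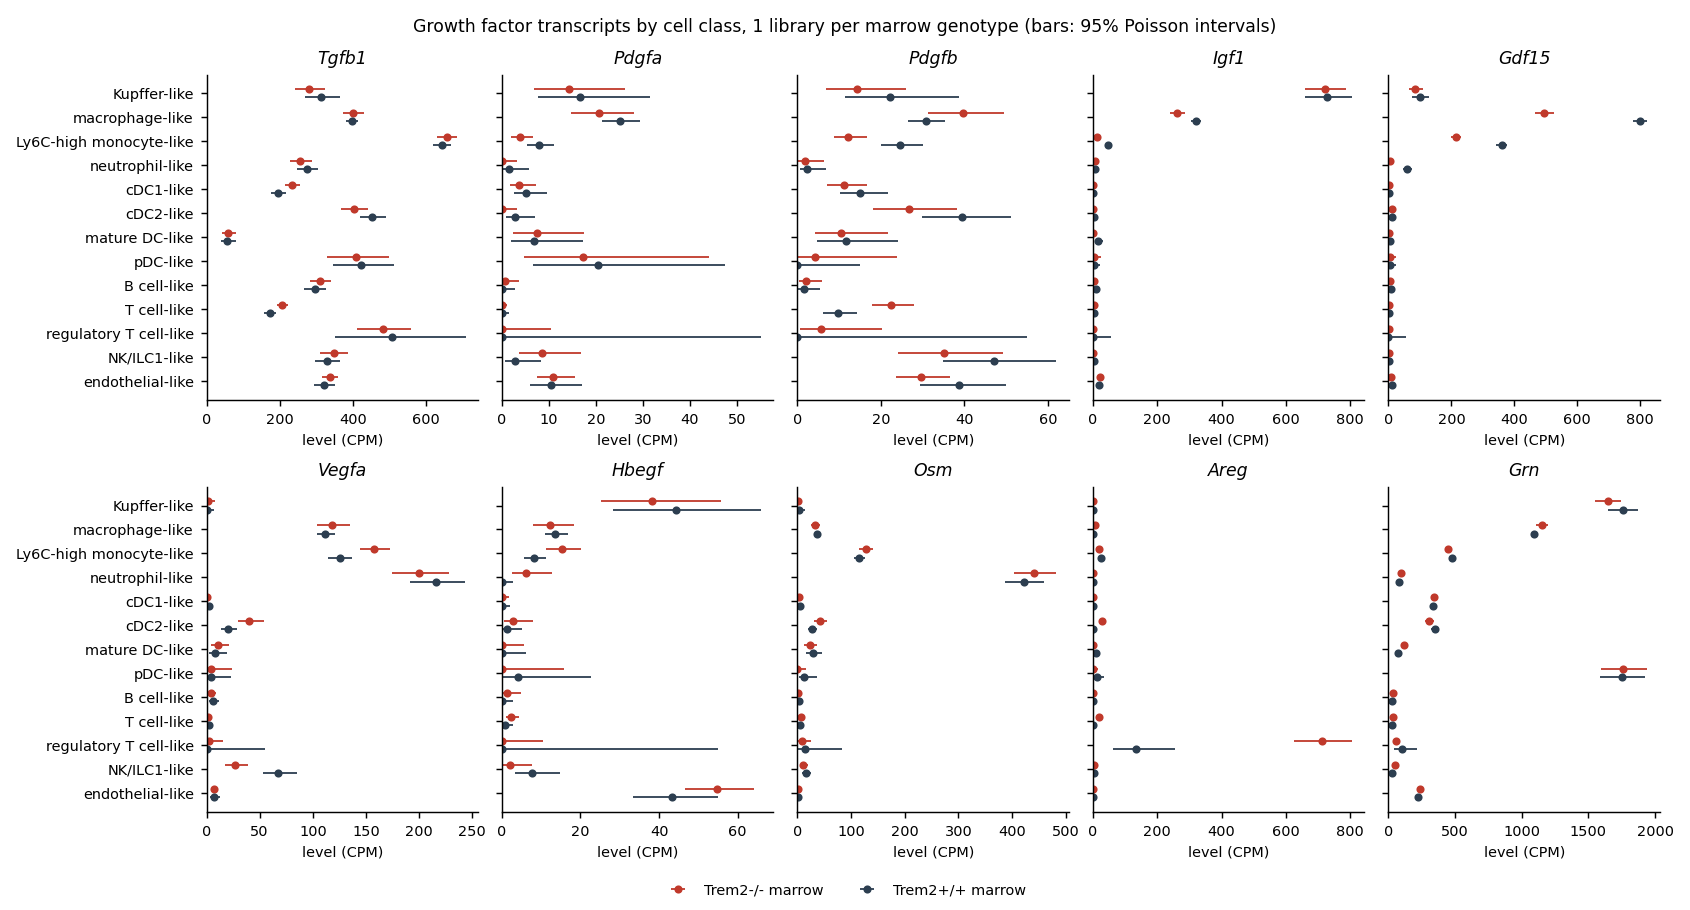
Level of each of the 10 genes in 13 cell classes, in CPM of the class total on linear axes that differ between panels. Points are single libraries (red, Trem2-/- marrow; dark blue, Trem2+/+ marrow) and bars are exact 95% Poisson intervals for counting error. Igf1 peaks in Kupffer-like cells at 722 and 729 CPM, Osm in neutrophil-like cells at 441 and 423 CPM, and Areg in regulatory T cell-like cells at 711 and 134 CPM.

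Between the marrow genotypes, most levels within a class were close together. A ratio was taken where a gene had a mean of at least 20 CPM and at least 20 UMIs over both libraries, which gave 45 combinations of a gene and a class. A ratio of at least 1.5-fold was seen in 8 of them, 3 higher and 5 lower in the Trem2-/- library. In Ly6C-high monocyte-like cells 2 of 7 genes were lower, Gdf15 and Igf1, where 1.1% of all 5182 genes tested were lower, and 0 were higher, where 1.08% of all genes were. In macrophage-like cells Gdf15 alone of 8 genes was lower, where 1.95% of all genes were, and 0 were higher (2.79% of all genes). In neutrophil-like cells Gdf15 alone of 5 was lower (5.36% of all genes) and 0 were higher (3.51%). In cDC2-like cells, a class of conventional dendritic cells, Vegfa and Osm of 5 genes were higher (4.72% of all genes) and 0 were lower (3.22%). In NK/ILC1-like cells Grn of 4 genes was higher (5.16% of all genes) and Vegfa was lower (2.84%). None of the genes with a ratio passed 1.5-fold in B cell-like (3.89% of all genes higher, 2.05% lower), Kupffer-like (11.1% and 6.1%), T cell-like (4.8% and 0.792%), cDC1-like (1.6% and 1.39%) or endothelial-like cells (1.4% and 1.46%).

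**Figure D2:**
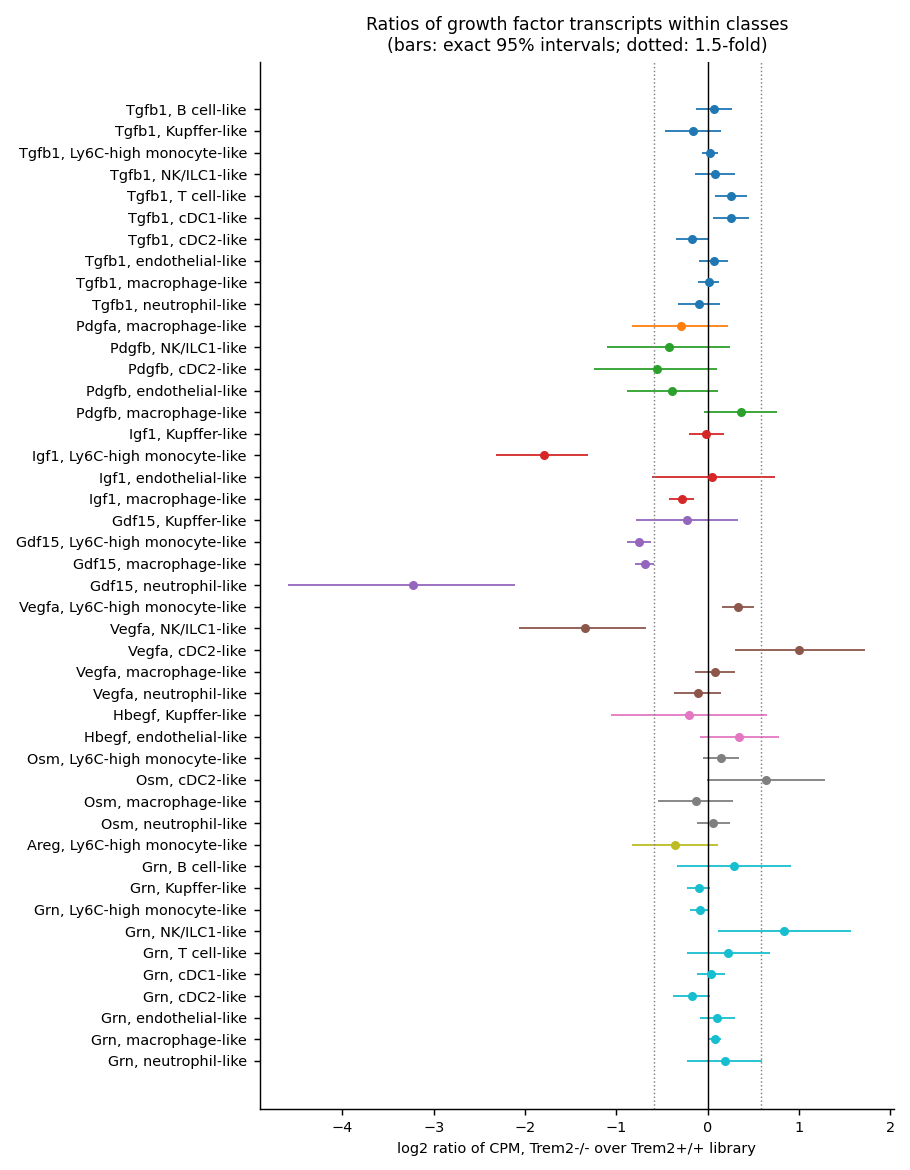
Log2 ratio of CPM, Trem2-/- library over Trem2+/+ library, for the 45 combinations of gene and class with enough counts, coloured by gene. Bars are exact 95% intervals for counting error, the solid line marks equal levels and the dotted lines 1.5-fold. Gdf15 in neutrophil-like cells lies farthest to the left at -3.23, and the Tgfb1 points lie near 0.

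Summed over all kept cells, Gdf15 and Igf1 of 7 genes were at least 1.5-fold lower in the Trem2-/- library, where 1.88% of all genes were, and 0 were higher, where 4.63% were. Gdf15 stood at 77.5 CPM against 258 CPM (log2 ratio -1.73, -1.81 to -1.66). Igf1 stood at 58.9 CPM against 113 CPM (log2 ratio -0.95, -1.04 to -0.85). Grn was 346 CPM and 499.7 CPM (log2 ratio -0.53). Tgfb1 was 339 CPM and 363 CPM (log2 ratio -0.10). The share of macrophage-like cells differed between the libraries as given above, and these sums hold both that difference and the levels inside each class.

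TGF-beta 1, the cytokine that turns on collagen production in stellate cells, could be measured in each of the 10 classes. Tgfb1 (ENSMUSG00000002603; mm10 chromosome 7, 25687002 to 25705077, forward strand) stood at 657 CPM with Trem2-/- marrow (interval 629 to 685) and 645 CPM (620.2 to 669.6) with Trem2+/+ marrow in Ly6C-high monocyte-like cells. The next class, cDC2-like cells, had 404 and 454 CPM, and macrophage-like cells had 401 and 398 CPM. These next 2 classes overlapped in their intervals in the Trem2-/- library but not in the other. Of the 10 classes T cell-like cells were lowest, at 206 and 173 CPM. Regulatory T cell-like cells, too few for a ratio with 97 and 27 cells, had 482 and 507 CPM. Mature dendritic cell-like cells had 58.4 and 57.0 CPM. In each of the 10 classes the Tgfb1 ratio between genotypes was under 1.5-fold, with the largest log2 ratios, 0.26 (0.08 to 0.43) and 0.25 (0.06 to 0.45), in T cell-like and cDC1-like cells.

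TGF-beta is secreted in a latent form, and the genes that hold and release it were spread over different cells. Of the 11 listed genes for TGF-beta ligands and activation, 4 could be measured in macrophage-like cells and 4 in monocyte-like cells, and 0 passed 1.5-fold in either class (list medians -0.01 and 0.13 on the log2 scale, against 0.01 and 0.0049 over all genes tested). In Kupffer-like cells 2 of 3 were higher in the Trem2-/- library, Nrros and Itgav (list median 0.63, all genes 0.05, with 11.1% of all genes higher). In T cell-like cells 2 of 3 were higher, Itgav and Furin, for a protease that cuts the TGF-beta precursor (list median 0.78, all genes 0.09, with 4.8% of all genes higher). Over all kept cells 2 of 6 were higher, Ltbp4, for a latent TGF-beta binding protein, and Lrrc32 (list median 0.21, all genes 0.06, with 4.63% of all genes higher). In the B cell-, NK/ILC1-, cDC1-, cDC2- and endothelial-like classes 0 passed. Nrros, which anchors latent TGF-beta on myeloid cells, stood at 233 and 208 CPM in monocyte-like cells and 133 and 143 CPM in macrophage-like cells. Thbs1, for thrombospondin, an activator of latent TGF-beta, stood at 235 and 163 CPM in monocyte-like cells. In neutrophil-like cells, of 3 genes of the list measured, 1 was higher and 1 lower (list median 0.09, all genes -0.03, with 3.51% of all genes higher and 5.36% lower). Thbs1 was 99.7 CPM against 45.7 CPM there (log2 ratio 1.12, 0.65 to 1.61) and Nrros 87.2 against 134 CPM (log2 ratio -0.62, -0.99 to -0.25). Regulatory T cell-like cells carried Itgav at 510 and 463 CPM and Itgb8 at 135 and 59.7 CPM, which together encode the integrin that releases TGF-beta. They also had Lrrc32, their surface anchor for it, at 81.8 and 59.7 CPM, the Trem2+/+ values of Itgb8 and Lrrc32 resting on 4 UMIs each. Itgb8 was at 0 or 1 UMI in Kupffer-, macrophage- and monocyte-like cells of either library.

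Pdgfa and Pdgfb, for the A and B chains of PDGF, were found on few UMIs in each leukocyte class. Pdgfa (ENSMUSG00000025856; mm10 chromosome 5, 138976014 to 138997370, reverse strand) was highest in macrophage-like cells, at 20.6 CPM (14.7 to 28.0) with Trem2-/- marrow and 25.1 CPM (21.3 to 29.4) with Trem2+/+ marrow. Kupffer-like cells had 14.2 and 16.6 CPM, with overlapping intervals. Pdgfa had 0 UMIs in T cell-like cells of both libraries, which allows up to 0.824 and 1.21 CPM.

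Pdgfb (ENSMUSG00000000489; mm10 chromosome 15, 79995874 to 80014977, reverse strand), the ligand that stellate cells answer through PDGF receptor beta, was above 20 CPM in both libraries in 4 of the 10 classes. Macrophage-like cells had 39.6 and 30.7 CPM, NK/ILC1-like cells 35.2 and 47.0 CPM, endothelial-like cells 29.5 and 38.7 CPM and cDC2-like cells 26.8 and 39.5 CPM, in the order Trem2-/- and Trem2+/+. Neighbours in this order overlapped in their intervals, and 0 of the 4 ratios reached 1.5-fold. Monocyte-like cells had 12.2 CPM (39 UMIs) and 24.7 CPM (101 UMIs), which is a log2 ratio of -1.02 (-1.59 to -0.47). Their mean was below the 20 CPM needed for a count. T cell-like cells held 82 UMIs (22.5 CPM) in the Trem2-/- library and 24 UMIs (9.64 CPM) in the Trem2+/+ library, which was also below that mean. Within the T cell-like cluster led by Pdcd1, Gzmk and Lag3, genes of chronically stimulated CD8 T cells, Pdgfb was 48.2 CPM (71 UMIs) against 19.4 CPM (13 UMIs), which is a log2 ratio of 1.32 (0.45 to 2.29). The unnamed cluster led by Klra1, Klra7 and Gzmb showed 36.9 and 14.4 CPM (log2 ratio 1.35, 0.31 to 2.57). The clusters led by Cd40lg and Il17a and by Lef1 and Tcf7 stayed below 10 CPM in both libraries. The Pdcd1-led cluster made up 42.1% of T cell-like cells in the Trem2-/- library and 28.4% in the Trem2+/+ library. These clusters were singled out after their values were seen. When each library was clustered alone the T cell-like log2 ratio of Pdgfb was 0.28. Pdgfa and Pdgfb each overlap an antisense gene, and no source used here says whether counting used strand. Pdgfc, for another PDGF ligand, was 61.0 and 71.9 CPM in Kupffer-like cells and 24.2 and 12.8 CPM in macrophage-like cells.

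**Figure D3:**
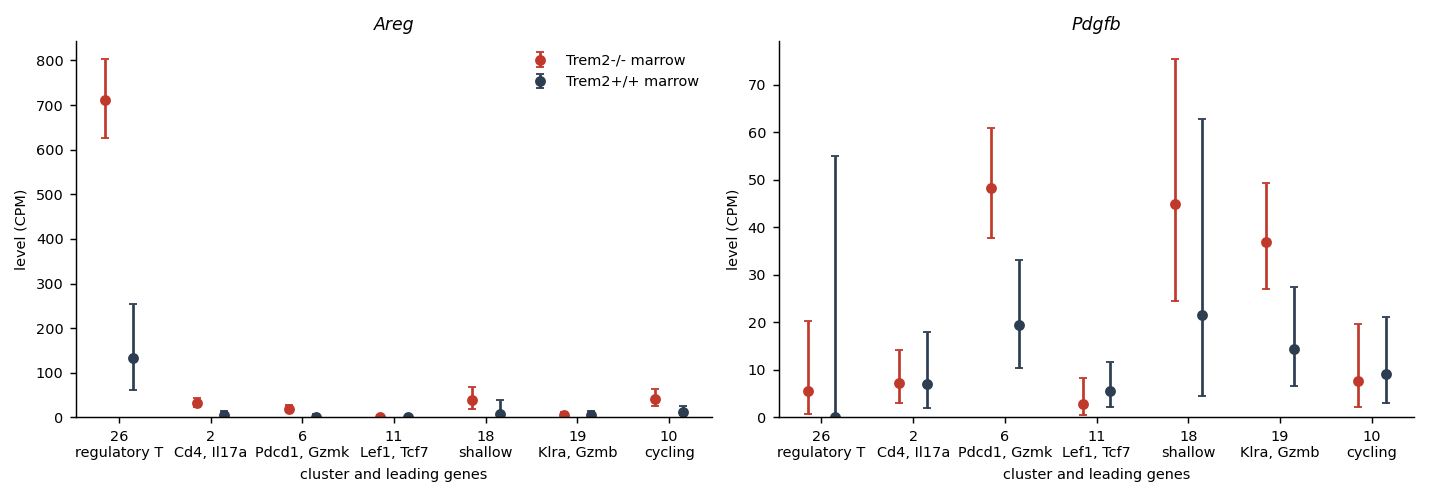
Levels of Areg and Pdgfb in CPM in 7 lymphoid clusters, labelled by number and leading genes. Points are single libraries and bars exact 95% Poisson intervals. Areg stands apart in the regulatory T cell-like cluster (711 and 134 CPM), and Pdgfb in the Pdcd1- and Gzmk-led cluster is 48.2 CPM in the Trem2-/- library and 19.4 CPM in the Trem2+/+ library.

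IGF-1, a growth factor with anabolic effects that hepatocytes also make, was a macrophage-lineage transcript among these leukocytes. Igf1 (ENSMUSG00000020053; mm10 chromosome 10, 87858265 to 87937042, forward strand, overlapped by the antisense gene Igf1os) was highest in Kupffer-like cells. They had 722 CPM (661 to 788) with Trem2-/- marrow and 729 CPM (659 to 804) with Trem2+/+ marrow, and 79.0% and 76.1% of these cells had at least 1 UMI. Macrophage-like cells followed with 263 CPM (240.5 to 287) and 320.2 CPM (306 to 335), which is a log2 ratio of -0.29 (-0.43 to -0.14). That ratio kept its sign in 12 of 12 alternative settings and passed 1.5-fold in 3 of them, at -1.40 with the macrophage, Kupffer and stress lists left out of the clustering genes, -0.86 at Leiden resolution 0.5 and -0.59 with all deposited barcodes. T cell-like cells, which serve as a measure of free RNA, had 2.47 and 2.41 CPM. Hepatocyte RNA was also present. The 10 hepatocyte markers summed to 488 and 673 CPM in Kupffer-like, 395 and 471 CPM in macrophage-like and 492 and 368 CPM in endothelial-like cells. In those endothelial-like cells Igf1 was 20.4 and 19.7 CPM, and the part of hepatocyte RNA in the Igf1 levels was not tested. Macrophage-like cells held 34.8% of the Igf1 UMIs of the Trem2-/- library and 65.7% of those of the Trem2+/+ library, and Kupffer-like cells 34.7% and 12.97%.

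In Ly6C-high monocyte-like cells Igf1 was 13.1 CPM against 45.4 CPM (log2 ratio -1.79, -2.31 to -1.31), with 5.59% and 11.2% of cells holding a UMI. The 12 macrophage markers summed to 5565 and 6848 CPM in the same class, and their part in the ratio was not tested. The direction depended on the clustering. It turned to 0.68 with the macrophage, Kupffer and stress lists left out of the clustering genes, and to 3.17 with each library clustered alone. Of the 9 other listed genes of the IGF system, 3 could be measured in macrophage-like cells. Of these, 2 were at least 1.5-fold lower in the Trem2-/- library (list median -0.70, all genes 0.01, with 1.95% of all genes lower). Igf2r, the receptor that clears IGF-2, was 37.0 against 60.3 CPM (log2 ratio -0.70, -1.09 to -0.34). Igfbp7, a secreted binding protein, was 16.5 against 28.3 CPM (log2 ratio -0.78, -1.37 to -0.23). In endothelial-like cells the binding protein gene Igfbp5 was 13.7 against 97.6 CPM (log2 ratio -2.83, -3.38 to -2.32). Of the 5 IGF-system genes measured there it alone passed 1.5-fold (list median -0.02, all genes -0.0020, with 1.46% of all genes lower). In other classes Igfbp7 was higher in B cell-like (1 of 2 measured, 3.89% of all genes) and neutrophil-like cells (1 of 3, 3.51%). Igfbp4 was lower in Kupffer-like cells (1 of 4, 6.1% of all genes).

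GDF15 is a stress-induced cytokine of the TGF-beta family whose receptor GFRAL is known from the hindbrain. Gdf15 (ENSMUSG00000038508; mm10 chromosome 8, 70629393 to 70632456, reverse strand) was lower in the Trem2-/- library in 3 classes and over all kept cells. The 250 bases upstream of its start are printed from RefSeq (GRCm38.p6, chr8:70632457-70632706, reverse strand, written 5′ to 3′ along the gene), because Gdf15 gave 3 of the 5 lower ratios. Motifs searched on both strands were these: the E-box CACGTG, the CRE (cyclic AMP response element) TGACGTCA and its shorter form TGACG (the short CRE), the AP-1 site TGANTCA, the amino acid response element TGATGNAA and the hypoxia core ACGTG. The hypoxia core overlaps the E-box and the short CRE overlaps the CRE. None of these letters occur in this window, so it carries no capitals. RefSeq lists a second start for Gdf15, inside the gene, whose window (not printed) holds an E-box with its first base 83 bases before that start.

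Gdf15: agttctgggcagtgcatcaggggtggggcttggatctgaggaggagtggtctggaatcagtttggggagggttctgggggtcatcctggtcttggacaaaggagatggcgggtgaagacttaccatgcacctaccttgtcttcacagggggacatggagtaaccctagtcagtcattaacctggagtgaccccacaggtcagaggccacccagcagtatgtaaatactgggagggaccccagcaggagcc

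Macrophage-like cells had 495 Gdf15 CPM (464 to 527) with Trem2-/- marrow and 799 CPM (777 to 822) with Trem2+/+ marrow (log2 ratio -0.69, -0.79 to -0.59). Both macrophage-like clusters stood in the same order. The Gpnmb-led cluster had 702 CPM (625 to 785) against 1160.1 CPM (1116 to 1205), a log2 ratio of -0.73 (-0.90 to -0.55). The larger cluster led by Ms4a7 and C1qa had 435 CPM (403 to 470.1) against 592 CPM (569 to 617). Its log2 ratio of -0.44 (-0.57 to -0.32) did not reach 1.5-fold. With the 2 clusters weighted equally the levels were 569 and 876 CPM (log2 ratio -0.62). The ratio kept its sign under the 12 alternative settings that gave one and was past 1.5-fold in 9 of them. It was -0.58 at Leiden resolution 2, -0.31 with the 10 factors and Trem genes kept in the clustering and -0.30 with all deposited barcodes.

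Few cells carried most of the Gdf15 transcripts. Of macrophage-like cells, 13.5% (9.22 to 18.8) in the Trem2-/- library and 20.5% (17.7 to 23.5) in the Trem2+/+ library had at least 10 Gdf15 UMIs, and these cells held 75.7% and 84.2% of the class's Gdf15 UMIs. The share of macrophage-like cells with any Gdf15 UMI was 43.7% (94 of 215) and 48.8% (376 of 770), at median depths of 8492 and 7544 UMIs. In T cell-like cells, which stand for background, it was 0.636% and 0.866%. After thinning to 1000 UMIs per cell, macrophage-like shares with a UMI were 20.6% (15.4 to 26.6; 214 cells deep enough) and 28.0% (24.8 to 31.3; 762 cells). The highest single cell held 72 UMIs in the Trem2-/- library and 102 in the Trem2+/+ library.

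**Figure D4:**
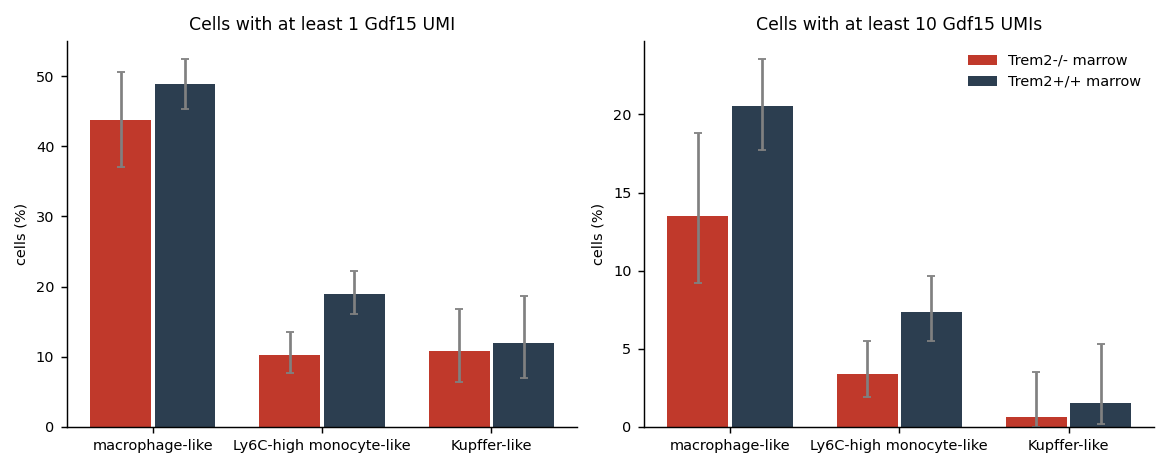
Share of macrophage-, Ly6C-high monocyte- and Kupffer-like cells with at least 1 (left) and at least 10 (right) Gdf15 UMIs, in percent of the cells of each class. Bars are single libraries and error bars exact 95% binomial intervals. At 10 UMIs the macrophage-like shares are 13.5% and 20.5% and the monocyte-like shares 3.36% and 7.35%.

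Ly6C-high monocyte-like cells were the second source, at 213 CPM (198 to 229.9) against 359 CPM (341 to 378), which is a log2 ratio of -0.75 (-0.89 to -0.62). At least 10 UMIs were found in 3.36% (1.89 to 5.47) and 7.35% (5.47 to 9.63) of these cells. As for Igf1, the summed macrophage markers given above were also lower in the Trem2-/- library in this class. The ratio turned to 2.995 under separate clustering of the libraries, a setting in which no cluster of the Trem2-/- library was named macrophage-like. It ranged down to -3.10 at Leiden resolution 2. Kupffer-like cells had 85.1 and 99.6 CPM (log2 ratio -0.23, -0.78 to 0.33).

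In neutrophil-like cells Gdf15 was 6.23 CPM (7 UMIs) against 58.4 CPM (74 UMIs), which is a log2 ratio of -3.23 (-4.59 to -2.11). The 74 UMIs of the Trem2+/+ library came from 18 of 701 cells, 2 of which had at least 10 UMIs each and held 63.5% of them, and without the highest cell the level was 37.1 CPM. Most lay in the neutrophil-like cluster led by Il1f9 and Acod1, at 11.8 against 123 CPM, while the cluster led by Retnlg and S100a9 had 2.86 and 9.68 CPM. The 12 macrophage markers summed to 2454 and 2675 CPM in neutrophil-like cells, and their part in the Gdf15 counts was not tested.

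Of the listed stress regulators of Gdf15, 2 could be measured in macrophage-like cells, and 0 passed 1.5-fold (list median -0.15, all genes 0.01). Atf4, the transcription factor of the integrated stress response, was 83.3 and 91.0 CPM, and Ddit3, for its partner CHOP, was 31.4 and 35.5 CPM. In NK/ILC1-like cells 1 of 2 was higher (5.16% of all genes), Ddit3, at 40.5 against 21.6 CPM from 38 and 23 UMIs. The receptor gene Gfral had 0 UMIs in each class named in this text.

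VEGF-A, the main growth factor of vascular endothelium, was found in neutrophil-, monocyte- and macrophage-like cells. Vegfa (ENSMUSG00000023951; mm10 chromosome 17, 46016993 to 46032369, reverse strand) was 200.3 CPM (175 to 228) with Trem2-/- marrow and 216 CPM (191 to 243) with Trem2+/+ marrow in neutrophil-like cells. Monocyte-like cells had 158 and 125 CPM (log2 ratio 0.33, 0.15 to 0.51), and macrophage-like cells 118 and 112 CPM. The monocyte-like ratio kept its sign in 13 of 13 alternative settings and passed 1.5-fold in 5 that changed the clustering or the cells kept, reaching 2.89 under separate clustering of the libraries. Kupffer-like cells, by contrast, held 1 UMI and 0 UMIs, the latter allowing up to 5.53 CPM. The intervals of neutrophil-like and monocyte-like cells did not overlap in either library.

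Vegfa was uneven within the neutrophil- and macrophage-like classes. The neutrophil-like cluster led by Il1f9 and Acod1 had 321 and 328 CPM and the cluster led by Retnlg and S100a9 had 127 and 131 CPM. Among macrophage-like cells, the Gpnmb-led cluster had 445 CPM (194 UMIs) in the Trem2-/- library and 268 CPM (611 UMIs) in the Trem2+/+ library (log2 ratio 0.73, 0.49 to 0.96). The other macrophage-like cluster had 23.9 and 22.1 CPM. The log2 ratio of the class was 0.08 as summed and 0.69 with both clusters weighted equally, the Gpnmb-led cluster being the smaller share of the class in the Trem2-/- library. In that library the 6 cells with at least 10 Vegfa UMIs held 55.2% of the class's, and in the Trem2+/+ library 14 such cells held 33.8%. The cluster values were singled out after they were seen.

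Vegfa also passed 1.5-fold in 2 classes with few UMIs. In cDC2-like cells it was 40.2 CPM (45 UMIs) against 20.1 CPM (29 UMIs), which is a log2 ratio of 1.001 (0.30 to 1.73), and thinning each cell to 1000 UMIs brought this to 0.24. In NK/ILC1-like cells it was 26.6 CPM (25 UMIs) against 67.7 CPM (72 UMIs), which is a log2 ratio of -1.35 (-2.06 to -0.67). Thinning turned that to 0.51. In NK/ILC1-like cells the 12 macrophage markers summed to 461 and 478 CPM, and their part in the Vegfa ratio was not tested.

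Of the other VEGF-system genes, Nrp2, a co-receptor, was 58.6 against 115 CPM in macrophage-like cells (log2 ratio -0.97, -1.27 to -0.68). It was 1 of 2 genes of the list measured there (list median -0.56, all genes 0.01, with 1.95% of all genes lower). In monocyte-like cells 1 of 3 was higher and the list median was -0.20 (all genes 0.0049, with 1.08% of all genes higher). It was Flt1, for VEGF receptor 1, at 36.2 against 17.8 CPM (log2 ratio 1.02, 0.59 to 1.46). In endothelial-like cells 6 VEGF-system genes could be measured and 0 passed 1.5-fold (list median 0.18, all genes -0.0020). Over all kept cells 3 of 5 were higher, Kdr, Flt1 and Flt4 (list median 0.93, all genes 0.06, with 4.63% of all genes higher), where endothelial-like cells made up 10.97% of the Trem2-/- library and 5.85% of the Trem2+/+ library.

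HB-EGF, a membrane-anchored ligand of the EGF receptor, was found in endothelial-like and Kupffer-like cells. Hbegf (ENSMUSG00000024486) was 54.8 CPM (46.5 to 64.1) and 43.2 CPM (33.4 to 55.0) in endothelial-like cells (log2 ratio 0.34, -0.08 to 0.78). Kupffer-like cells had 38.3 CPM (25.2 to 55.7) and 44.3 CPM (28.4 to 65.9). The 2 classes overlapped in their intervals in both libraries. Monocyte-like cells had 15.3 and 8.06 CPM, macrophage-like cells 12.3 and 13.6 CPM, and B and T cell-like cells at most 2.20 CPM. The 10 and 14 cholangiocyte-like cells had 83.7 and 88.3 CPM from 12 and 17 UMIs.

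Amphiregulin is an EGF receptor ligand that tissue regulatory T cells are known to secrete during repair, and its gene was highest in regulatory T cell-like cells. Areg (ENSMUSG00000029378; mm10 chromosome 5, 91139599 to 91148432, forward strand) is a known cyclic AMP-responsive gene. Its 250 upstream bases are printed from RefSeq (GRCm38.p6, chr5:91139349-91139598, forward strand), because they hold a full CRE. The CRE TGACGTCA, whose first base lies 61 bases before the start, and the short CRE CGTCA, 115 bases before it, are in capitals. The CRE occurs in 1.55% of 32851 RefSeq promoter windows and the short CRE in 17.8%. A match describes the letters only. The shares for the other motifs were 6.02% for the E-box, 6.75% for AP-1, 3.45% for the amino acid response element and 16.6% for the hypoxia core. RefSeq windows were found for 7 of the 10 genes. Apart from Areg and Gdf15, Igf1 held an AP-1 match, 1 window of Pdgfa a short CRE, and 1 window of Vegfa a short CRE and a hypoxia core. Each of these windows lies inside the span given for its gene. The Vegfa window upstream of that span held none of the motifs.

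Areg: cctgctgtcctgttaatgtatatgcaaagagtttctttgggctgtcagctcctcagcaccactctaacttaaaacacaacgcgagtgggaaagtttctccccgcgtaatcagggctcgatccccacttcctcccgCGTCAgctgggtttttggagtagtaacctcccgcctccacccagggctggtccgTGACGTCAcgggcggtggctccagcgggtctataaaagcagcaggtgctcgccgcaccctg

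Regulatory T cell-like cells had 711 Areg CPM (626 to 804) with Trem2-/- marrow and 134 CPM (61.4 to 255) with Trem2+/+ marrow (log2 ratio 2.40, 1.46 to 3.55). This rests on 252 UMIs in 27 of 97 cells and on 9 UMIs in 2 of 27 cells. In the Trem2-/- library 1 cell held 65 of the UMIs and the level without it was 527 CPM. Thinned to 1000 UMIs, 20.5% (12.0 to 31.6) of 73 cells and 4.55% (0.115 to 22.8) of 22 cells had a UMI, and these intervals overlap. The class was 1.62% of the Trem2-/- library and 0.409% of the Trem2+/+ library, and it is outside the rule for ratios because the second holds fewer than 100 of its cells. Areg was among the genes left out of the clustering. The class held 53.3% of all Areg UMIs in the Trem2-/- library and 6.25% in the Trem2+/+ library.

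Elsewhere Areg was sparse. T cell-like cells had 64 UMIs (17.6 CPM) against 4 UMIs (1.61 CPM), and the T cell-like cluster led by Cd40lg and Il17a had 32.2 and 5.25 CPM. In Ly6C-high monocyte-like cells 62 and 101 UMIs (19.3 and 24.7 CPM) came from 9 and 7 cells, and 1 cell of the Trem2+/+ library held 52. In cDC2-like cells 29 of the 33 UMIs of the Trem2-/- library came from 1 cell. Macrophage-like cells had 15 UMIs in 3 cells and 6 UMIs in 2 cells. Areg had 0 UMIs in Kupffer-, neutrophil- and endothelial-like cells of both libraries.

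Genes for the shedding of EGF ligands were found in several classes. Adam17 was 174 and 169 CPM in macrophage-like and 165 and 194 CPM in monocyte-like cells, and Rhbdf2, which escorts the protease, 90.8 and 78.9 CPM in neutrophil-like cells. The 3 EGF-list genes measured in macrophage-like cells did not pass 1.5-fold (list median 0.04, all genes 0.01). Cd9, which binds HB-EGF at the membrane, was the farthest from equal at 447 against 656 CPM (log2 ratio -0.55). Ereg, a close relative of Areg, had 0 UMIs in macrophage-, Kupffer- and regulatory T cell-like cells of both libraries.

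Oncostatin M, an interleukin-6 family cytokine that stromal and endothelial cells sense, was found mainly in neutrophil- and monocyte-like cells. Osm (ENSMUSG00000058755; mm10 chromosome 11, 4236420 to 4241026, forward strand) was 441 CPM (403 to 482) with Trem2-/- marrow and 423 CPM (388 to 459.99) with Trem2+/+ marrow in neutrophil-like cells (log2 ratio 0.06, -0.12 to 0.24). The cluster led by Retnlg and S100a9 had 560 and 552 CPM and the cluster led by Il1f9 and Acod1 had 245 and 251 CPM, the reverse of their order for Vegfa. Monocyte-like cells had 127 and 115 CPM. Neutrophil-like cells held 41.2% and 37.7% of each library's Osm UMIs and monocyte-like cells 33.9% and 33.1%.

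The highest Osm level of the 29 clusters was in an unnamed one of 17 and 20 cells led by the basophil genes Fcer1a, Ms4a2 and Il4. It was 897 CPM (73 UMIs) and 626 CPM (48 UMIs). This rank rests on few cells, as 3 cells held 89.0% of these UMIs in the Trem2-/- library and 1 cell held 56.25% in the Trem2+/+ library. Without the highest cell of each library the levels were 491 and 274 CPM, below the 560 and 552 CPM of the Retnlg-led neutrophil-like cluster. None of the basophil and mast cell markers was detected in at least 0.2 of the cells of this basophil-gene cluster, so it could not take that name. Another class met the detection and fold rule, but the 10 leading genes held more markers of a different class, so the cluster stayed unnamed. By mean log2 fold of markers, basophil or mast cell came first (4.08) and neutrophil second (2.56). Kupffer-like cells held 1 and 2 Osm UMIs. In cDC2-like cells Osm was 42.0 CPM (47 UMIs) against 27.0 CPM (39 UMIs), which is a log2 ratio of 0.64 (-0.01 to 1.29), so that the interval reached equal levels. Of the other listed genes in this family, 1 of 5 was higher in monocyte-like cells (list median 0.15, all genes 0.0049, with 1.08% of all genes higher). It was Il6, for interleukin-6, at 113 against 62.8 CPM (log2 ratio 0.85, 0.61 to 1.08). In cDC2-like cells 1 of 4 was higher and the list median was -0.07 (all genes 0.03, with 4.72% of all genes higher). It was Socs3, for the feedback inhibitor of this pathway, at 512 against 340 CPM (log2 ratio 0.59, 0.41 to 0.77). Socs3 was also higher in B cell-like (2 of 4, with Il6st, 3.89% of all genes), endothelial-like (1 of 5, 1.4%) and NK/ILC1-like cells (1 of 3, 5.16%). In the last class Clcf1, for another cytokine of the family, was lower (2.84% of all genes). Socs3 is also on the list of dissociation and immediate-early stress genes used below. In the macrophage-, Kupffer-, neutrophil-, T cell- and cDC1-like classes 0 passed.

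Progranulin, a lysosomal and secreted glycoprotein, had its highest levels in phagocytes and plasmacytoid dendritic cell-like cells. Grn (ENSMUSG00000034708; mm10 chromosome 11, 102430315 to 102437048, forward strand, overlapped on the other strand by Fam171a2) was 1644 CPM (1551 to 1742) and 1759.8 CPM (1649.9 to 1875) in Kupffer-like cells. Plasmacytoid dendritic cell-like cells, with 42 and 67 cells, had 1762 and 1751 CPM. Macrophage-like cells had 1152 CPM (1105 to 1200.5) and 1091 CPM (1066 to 1118), which is a log2 ratio of 0.08 (0.01 to 0.15). Monocyte-like cells had 446 and 474.5 CPM, cDC1-like cells 345 and 338 CPM, and neutrophil-like cells 91.7 and 80.4 CPM. B and T cell-like cells stood between 26.1 and 35.9 CPM.

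The single Grn ratio past 1.5-fold was in NK/ILC1-like cells, at 46.9 CPM (44 UMIs) against 26.3 CPM (28 UMIs), which is a log2 ratio of 0.83 (0.12 to 1.57). These levels are close to those of B and T cell-like cells. Over all kept cells the Grn log2 ratio was -0.53, while within Kupffer- and macrophage-like cells it was -0.10 and 0.08. Macrophage-like cells held 26.01% of Grn UMIs in the Trem2-/- library and 50.9% in the Trem2+/+ library. Of the progranulin partner and processing genes, 9 could be measured in macrophage-like cells (list median -0.24, all genes 0.01). Of these, 1 passed 1.5-fold, where 1.95% of all genes were lower. Ctsl, for cathepsin L, which cuts progranulin, was at least 1.5-fold lower, at 265 against 400.2 CPM (log2 ratio -0.60, -0.74 to -0.46). Psap, for prosaposin, which carries progranulin to lysosomes, was 5426 against 6623 CPM (log2 ratio -0.29), and Ctsb 3869 against 4579 CPM (log2 ratio -0.24). In other classes Tmem106b was higher in Kupffer-like cells (1 of 7 measured, 11.1% of all genes) and Tnfrsf1b higher in T cell-like cells (1 of 5, 4.8%). Slpi was lower in cDC1-like cells (1 of 6, 1.39% of all genes).

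Pdgfra, Pdgfrb, Kdr, Flt1 and Osmr, for PDGF, VEGF and oncostatin M receptors, were highest in classes that are not leukocytes. Pdgfra stood at 334 and 254 CPM and Pdgfrb at 118 and 110.3 CPM in stellate or fibroblast-like cells, from 17, 23, 6 and 10 UMIs in 13 and 14 cells. In endothelial-like cells Pdgfra had 1 and 0 UMIs and Pdgfrb 0 in both. Kdr, for VEGF receptor 2, was 1806 and 1689 CPM in endothelial-like cells, and Flt1 494 and 403 CPM. Osmr was 55.5 and 51.1 CPM there, with its signalling partner Il6st at 934 and 833 CPM. Egfr was found in cholangiocyte-like cells (8 and 12 UMIs), stellate or fibroblast-like cells (2 and 3 UMIs) and plasmacytoid dendritic cell-like cells (4 and 2 UMIs), and had 0 UMIs in endothelial- and neutrophil-like cells. The TGF-beta co-receptor genes Eng and Tgfbr3 were 1454 and 1328 CPM, and 185 and 188 CPM, in endothelial-like cells. Among listed TGF-beta receptor and feedback genes, 2 of 10 measured in Kupffer-like cells were lower in the Trem2-/- library (6.1% of all genes). So were 2 of 8 in cDC1-like (1.39%), 1 of 8 in cDC2-like (3.22%) and 1 of 9 in neutrophil-like cells (5.36%). In NK/ILC1-like cells 1 of 9 was higher (5.16%) and 1 lower (2.84%). In B cell-, T cell-, monocyte-, macrophage- and endothelial-like cells 0 passed. Igf1r was higher in neutrophil-like cells (156 and 138 CPM) than in endothelial-like cells (64.3 and 72.7 CPM), with intervals that did not overlap in either library.

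**Figure D5:**
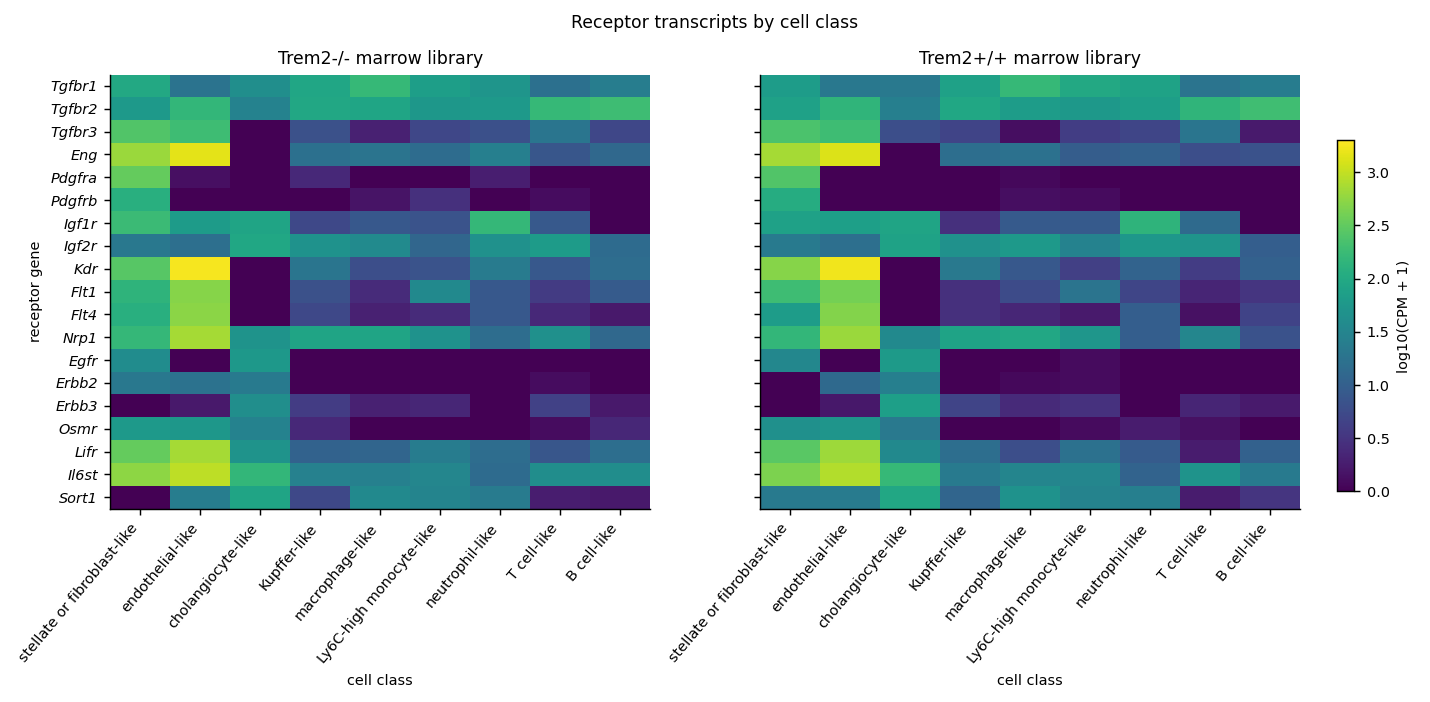
Levels of 19 receptor genes in 9 cell classes, coloured by log10(CPM + 1), with the Trem2-/- library on the left and the Trem2+/+ library on the right. Stellate or fibroblast-like (13 and 14 cells) and cholangiocyte-like columns (10 and 14 cells) rest on few cells. Pdgfra and Pdgfrb are bright only in the stellate or fibroblast-like column, and Kdr is brightest in the endothelial-like one, at 1806 and 1689 CPM.

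Other factors that act on stroma differed within the same macrophage classes. Of 6 such genes measured in macrophage-like cells, Il1a (99.8 against 42.7 CPM, log2 ratio 1.22) and Il1b (1186 against 758 CPM, 0.64) were higher in the Trem2-/- library, and Lgals3, for galectin-3 (1966 against 3469 CPM, -0.82), was lower. The list median was 0.19 (all genes 0.01, with 2.79% of all genes higher and 1.95% lower). In Kupffer-like cells 4 of 5 were higher, with a list median of 1.12 (all genes 0.05, with 11.1% of all genes higher). Hgf, the hepatocyte growth factor, was 48.2 against 22.1 CPM from 34 and 12 UMIs, Il1a 70.9 against 24.0 CPM, Il1b 387 against 170 CPM and Tnf 52.5 against 29.5 CPM (log2 ratio 0.83, -0.05 to 1.78). Other classes differed in direction. In NK/ILC1-like cells 2 of 4 were lower (Il1b and Lgals3, 2.84% of all genes) and in cDC1-like cells 1 of 3 (Tnf, 1.39%). In T cell-like cells 1 of 4 was higher (Spp1, 4.8% of all genes) and 1 lower (Il1b, 0.792%). In monocyte-like cells 2 of 5 were higher (Il1a and Spp1, 1.08% of all genes) and in neutrophil-like cells 1 of 5 (Il1a, 3.51%). In B cell-, cDC2- and endothelial-like cells 0 passed. Among the 20 dissociation and immediate-early stress genes, 4 of 20 measured in macrophage-like and 5 of 19 in Kupffer-like cells were also higher, with list medians of 0.26 and 0.34 on the log2 scale against 0.01 and 0.05 over all genes tested, and 2.79% and 11.1% of all genes higher. In endothelial-like cells 7 of 20 were higher (median 0.39; 1.4% of all genes), in T cell-like cells 4 of 19 (0.47; 4.8%), in B cell-like cells 4 of 19 (0.16; 3.89%) and in monocyte-like cells 2 of 20 (0.11; 1.08%). In NK/ILC1-like cells 2 of 17 were higher (5.16% of all genes) and in cDC2-like cells 1 of 20 (4.72%). In neutrophil-like cells 0 of 18 passed (3.51% of all genes higher), and in cDC1-like cells 2 of 20 were lower (1.39% of all genes). Hspa1a, a heat shock gene on that list, was 161 against 57.3 CPM in macrophage-like and 129 against 48.0 CPM in Kupffer-like cells. The part of dissociation stress in the cytokine and growth factor ratios was not tested.

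Genes with the most similar pattern to each factor were ranked by Pearson's r of log2(CPM + 1) over 20 points, 10 classes in each of 2 libraries, among 5734 genes. The points share libraries and class definitions, and r is a description. Igf1 was nearest to Gpx3 (r = 0.97) and Siglec1 (0.96), Gdf15 to Apoc2 (0.95) and Lpl (0.93), Osm to Nfkbia (0.98) and Nfkbiz (0.97), and Grn to Hexa and Adap2 (both 0.97). Vegfa was nearest to Ifrd1 (0.90) and Ccrl2 (0.89), Hbegf to Ilrun (0.93) and Pofut2 (0.92), and Tgfb1 to F13a1 (0.85) and Fn1 (0.84). The nearest genes to Pdgfa were Nagk (0.87) and S100a1 (0.85), those to Pdgfb Ssbp4 and C1d (both 0.87), and those to Areg S100a4 (0.85) and Aup1 (0.75).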

How the data were processed

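The authors deposited raw UMI counts per gene and barcode, which per the file headers come from Cell Ranger 5.0.1 and use mm10 per the submitters' processing notes, from Chromium 5' v2 libraries per the labels' protocols. The annotation release, the use of strand in counting and the part of Trem2 deleted are not given in the sources used here; gene positions come from GENCODE release M21, which held 99.6% of the 32285 identifiers.

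The 10 genes and all gene lists were chosen with earlier results of these data known. The genes named in the text are the 10 factors, members of the 11 pathway lists at any size, marker genes, Trem2, the genes leading a cluster (chosen after they were seen) and the 2 genes most like each factor. A barcode was kept with 200 or more genes and no more than 10% of UMIs mitochondrial. Scrublet called 4 and 2 doublets, under 0.5% of barcodes, so doublet calling had not worked and doublets were not removed; dropping the top 5% by score was an alternative. Clustering used scanpy 1.11.5 (counts scaled to 10000, 2000 variable genes without the 10 factors and the Trem and Treml genes, 30 components, 15 neighbours, Leiden resolution 1, no batch integration). A class name needed a mean log2 fold of at least 1. At least 3 of its markers, and no fewer than were missing, had to be detected in at least 0.2 of the cells. The name was withheld where the 10 leading genes held more markers of an unrelated class, or where UMI counts were low and no marker was among those genes. It was also withheld where an unrelated class with at least 4 markers detected reached 0.8 of the fold. These rules were set after the clusters were seen, with markers of 27 classes. UMIs were summed per class and library and divided by the class total (CPM). Ratios needed 100 cells per library, a mean of 20 CPM and 20 UMIs. No differential test was run with 1 library per group. The ratio interval was run on simulated class sums drawn as independent Poisson counts, which is what the interval assumes. The simulation left out the gathering of UMIs in few cells, so it cannot show how the interval holds there. Alternatives changed the clustering, cell filter, doublets, summing, scaling, low-count rule and fold.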

Additional observations from a re-analysis of the deposited data

How the results depend on the processing

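Each genotype is 1 library of pooled mice, so ratios carry no measure of the variation between mice, and at this depth genes of a few CPM could not be compared. No paired analysis was possible because each genotype is 1 library with no replicate. Of 15 alternatives, the 2-fold and no-minimum-CPM ones changed only counts. The others gave 709 values for 56 ratios. These include Areg in regulatory T cell-like, T cell-like and all kept cells and Pdgfb in T cell-like cells, outside the rule for ratios. Of the values, 626 stayed within the interval of the reported ratio, 79 moved outside it and 4 reversed. Reversed means a change of sign in a ratio of at least 1.5-fold. Smaller ratios that changed sign are counted as inside or outside the interval. Tgfb1 in monocyte-like cells kept its sign in 6 of 13 alternatives, and Areg in monocyte-like and Grn in Kupffer-like cells in 8 of 13. The 3 combinations at least 1.5-fold higher became 6 at Leiden resolution 0.5, 6 with the macrophage, Kupffer and stress lists left out of the clustering genes, 5 with all deposited barcodes, 5 with totals without the 50 most abundant genes, 14 with no minimum CPM and 1 at 2-fold. The 5 lower ones became 8 at resolution 0.5, 8 without those lists, 8 with each library clustered alone, 16 with no minimum CPM and 3 at 2-fold. Combinations with enough counts were selected anew under each alternative that changed cells, classes, summing, scaling or the low-count rule. The share over all genes was not computed for the alternatives, so a larger count need not be a larger share. The number of genes with the same highest class, 7, stayed between 6 and 9. The reversed log2 ratios were Igf1 in monocyte-like cells (0.68 without those lists, 3.17 with each library alone), Gdf15 in monocyte-like cells (2.995 with each library alone) and Vegfa in NK/ILC1-like cells (0.51 with cells thinned to 1000 UMIs); the cause was not tested. Gdf15 over all kept cells stayed between -1.85 and -1.69 and in neutrophil-like cells between -3.52 and -2.35. Leaving out barcodes found in both libraries, an alternative chosen after the data were seen, gave 3 higher and 5 lower, as reported.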
